A study of Mus musculus with 12 samples.

Results

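The cytochrome P450 genes of the mouse, called Cyp followed by a family number, a subfamily letter and a gene number, were examined in the aorta of mice under a challenge that leads to aortic dissection. Members were taken as all genes on the array whose name follows that pattern, which leaves out Cyp51. They came to 95 genes, measured by 120 probes, of the 34796 gene names on the array. A gene was compared between groups if one of its probes exceeded background clearly on each of the 3 arrays in some group. By that filter 35 Cyp genes, with 40 probes, entered the tests, of 20026 genes tested in all, and 20 of the 35 were well above background on all 12 arrays.

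Aortas came from C57BL/6J mice, per the labels, which were male and aged 11 to 14 weeks, per the study's methods, and were taken on day 3 in 4 groups of 3 mice, with 1 array for each mouse. DMSO mice received dimethylsulfoxide, the vehicle, once daily by intraperitoneal injection, and rapamycin mice received 2 mg/kg/day of rapamycin, an inhibitor of the kinase mTOR, in the same vehicle. BA+DMSO mice received 2 infusions from osmotic minipumps, BAPN (beta-aminopropionitrile, an inhibitor of collagen crosslinking) at 150 mg/kg/day and AngII (angiotensin II) at 1 µg/kg/min, together with the vehicle. BA+rapamycin mice received both infusions and rapamycin. The treatment label of the first group is DMSO, and the design text gives it as DMSO alone, sampled like the others at 3 days, with Pre as its name, which the sample titles also carry and which elsewhere in the study stands for the state before the challenge. As a model this is chemical and acute, in young adult males of 1 strain, and the tissue is the whole wall above the right renal artery with all of its cell types.

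Cytochrome P450 enzymes carry a haem group and use electrons from a reductase to insert oxygen into small lipophilic molecules. The large families 2 and 3 are best known in the liver, where they clear drugs and other foreign compounds. Family 4 hydroxylates fatty acids and leukotrienes, and several 2C and 2J enzymes make epoxides of arachidonic acid that act on vascular tone. Others make or break down signals: steroid hormones (Cyp17a1, Cyp21a1), oxysterols and bile acids (Cyp27a1, Cyp46a1, Cyp39a1), vitamin D (Cyp2r1) and retinoic acid (Cyp26b1).

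Levels are given on the log2 scale relative to each array's 75th percentile of signal, so 0 is that percentile, and levels of different probes cannot be set against each other. The 75th percentile itself, a measure of array brightness, was 221 to 337 on the 6 unchallenged arrays and 74.6 to 246 on the 6 challenged ones. All DMSO arrays and 1 rapamycin array lay on 1 slide and the other 8 arrays on another, so that on vehicle the challenge and the slide cannot be told apart from those 6 arrays, and a slide term rests on the rapamycin group alone. The comparison of rapamycin with DMSO is also partly confounded with slide, since only 1 rapamycin array shares the slide of the DMSO arrays. BA+DMSO replicate 2 correlated least with its own group, at 0.949 to 0.969 across probes. The smooth muscle markers (9 of 9) and endothelial markers (9 of 9) all passed the filter. Fewer cells of a type and less RNA per cell cannot be told apart in tissue RNA.

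Which P450 genes the aorta expressed was read first from the filter. Of the 39 members assigned to fatty acid and eicosanoid metabolism 16 were tested, of the 32 for foreign compounds 10, of the 6 for sterols and bile acids 3, of the 6 for steroid hormone synthesis 2, of the 3 for vitamin D 1, of the 3 for retinoic acid breakdown 1, and of 6 others 2. Of the 60 members not tested, 52 were well above background on none of the 12 arrays. Among these 52 were Cyp1a1 and Cyp1a2, the classical targets of the aryl hydrocarbon receptor, the steroid enzymes Cyp11a1, Cyp11b1, Cyp11b2 and Cyp19a1, the vitamin D enzymes Cyp24a1 and Cyp27b1, the retinoic acid hydroxylases Cyp26a1 and Cyp26c1, and the bile acid enzymes Cyp7a1 and Cyp8b1. Cyp7b1, an oxysterol hydroxylase, was above background on 6 arrays and Cyp4a31 on 5, in neither case on all 3 of a group, and 6 further members were detected on 1 to 3 arrays. The 60 were not compared, and they include the 4 names marked as pseudogenes.

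The sequences that carry the signal are the 60-base probes of the array. For 4 members described below, the mapped probe spans more than its own length on the mouse genome build mm9, so it crosses at least 1 exon junction and reads spliced RNA. They are shown because all 4 genes were called under the challenge on rapamycin, Cyp17a1 and Cyp46a1 as higher and Cyp4f13 and Cyp2d12 as lower, and the first pair also on vehicle. Cyp17a1 is placed at chr19:46742594-46743207 on the minus strand, Cyp46a1 at chr12:109596310-109598708 on the plus strand, Cyp4f13 at chr17:33062503-33062650 on the minus strand and Cyp2d12 at chr15:82388259-82388501 on the plus strand.
Cyp17a1: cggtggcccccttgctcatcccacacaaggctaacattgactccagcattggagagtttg
Cyp46a1: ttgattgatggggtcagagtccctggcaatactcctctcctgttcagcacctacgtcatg
Cyp4f13: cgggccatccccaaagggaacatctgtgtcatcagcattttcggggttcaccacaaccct
Cyp2d12: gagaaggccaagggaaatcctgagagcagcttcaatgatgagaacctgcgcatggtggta

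A further probe needs its sequence to be read. The brighter of the 2 tested Cyp2u1 probes (chr3:130996343-130996402, mm9, minus strand), which stands for the gene in the counts, holds an alternating run of 32 bases. Bases 11 to 40 of the probe are shown, with the part of the run they hold in capitals. Cyp2u1 is a hydroxylase of long-chain fatty acids.
Cyp2u1: tgGTGTGTGTGTGTGTGTGTGTGTGTGTGT
This probe read between 4.39 and 5.59 on the 12 arrays and was called in no comparison. The second Cyp2u1 probe, which lies across a junction and has no such run, gave log2 differences of 0.88 (SE 0.33, limma adjusted p 0.0795) between BA+DMSO and DMSO and 1.52 (SE 0.33, adjusted p 0.00545) between BA+rapamycin and rapamycin, against -0.56 and -0.25 for the first. Of the 3 Cyp2u1 probes on the array 2 were tested, and neither of these lists a RefSeq transcript matched to a gene symbol. Whether the repeat run binds other RNA was not tested. The 2 tested probes disagreed in direction, so no direction is given for Cyp2u1, which stays in all counts and medians below by its first probe.

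The challenge was compared in mice on vehicle (BA+DMSO minus DMSO) and again in mice on rapamycin (BA+rapamycin minus rapamycin). These 2 comparisons share no sample. On vehicle, 9 of 35 Cyp genes (25.7%) passed an adjusted p under 0.05 in limma, where 21.4% of all genes tested did. The 5 that rose were Cyp4f18, Cyp17a1, Cyp2r1, Cyp46a1 and Cyp4f16, and higher calls made up 10.4% of all genes. The 4 that fell were Cyp2b10, Cyp27a1, Cyp4f14 and Cyp4v3, and lower calls made up 11% of all genes.

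On rapamycin, 18 of 35 (51.4%) passed, where 42.7% of all genes did. Higher were 7 (Cyp17a1, Cyp2f2, Cyp2r1, Cyp46a1, Cyp4f18, Cyp2t4 and Cyp21a1), beside 19.8% of all genes, and lower were 11 (Cyp4b1, Cyp2b10, Cyp27a1, Cyp26b1, Cyp4v3, Cyp4f14, Cyp2d22, Cyp39a1, Cyp2d12, Cyp2j9 and Cyp4f13), beside 22.9%. The Cyp genes called in both comparisons numbered 8, which is 88.9% of the first set and 44.4% of the second, and each had the same sign in both. In all, 26 of 35 had the same sign in both, 19 were called in either and 16 in neither. No share of all genes is given for these counts over both comparisons, so they are not read as particular to the family. The median difference over the 35 was 0.19 on vehicle and -0.17 on rapamycin, beside -0.02 and -0.07 over all genes. The groups did not overlap for 16 of the 35 (45.7%) on vehicle, beside 35.6% of all genes, and for 20 (57.1%) on rapamycin, beside 67.8%. On vehicle and on rapamycin the share of Cyp genes called was near that of all genes. Some members, such as Cyp2b10, passed the filter only through the groups where they are high. Over the 20 Cyp genes above background on all 12 arrays, 6 were called on vehicle (30%), 5 higher and 1 lower, beside 21.7% of all genes so detected, and 11 on rapamycin (55%), 6 higher and 5 lower, beside 44.6%.

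**Figure D1:**
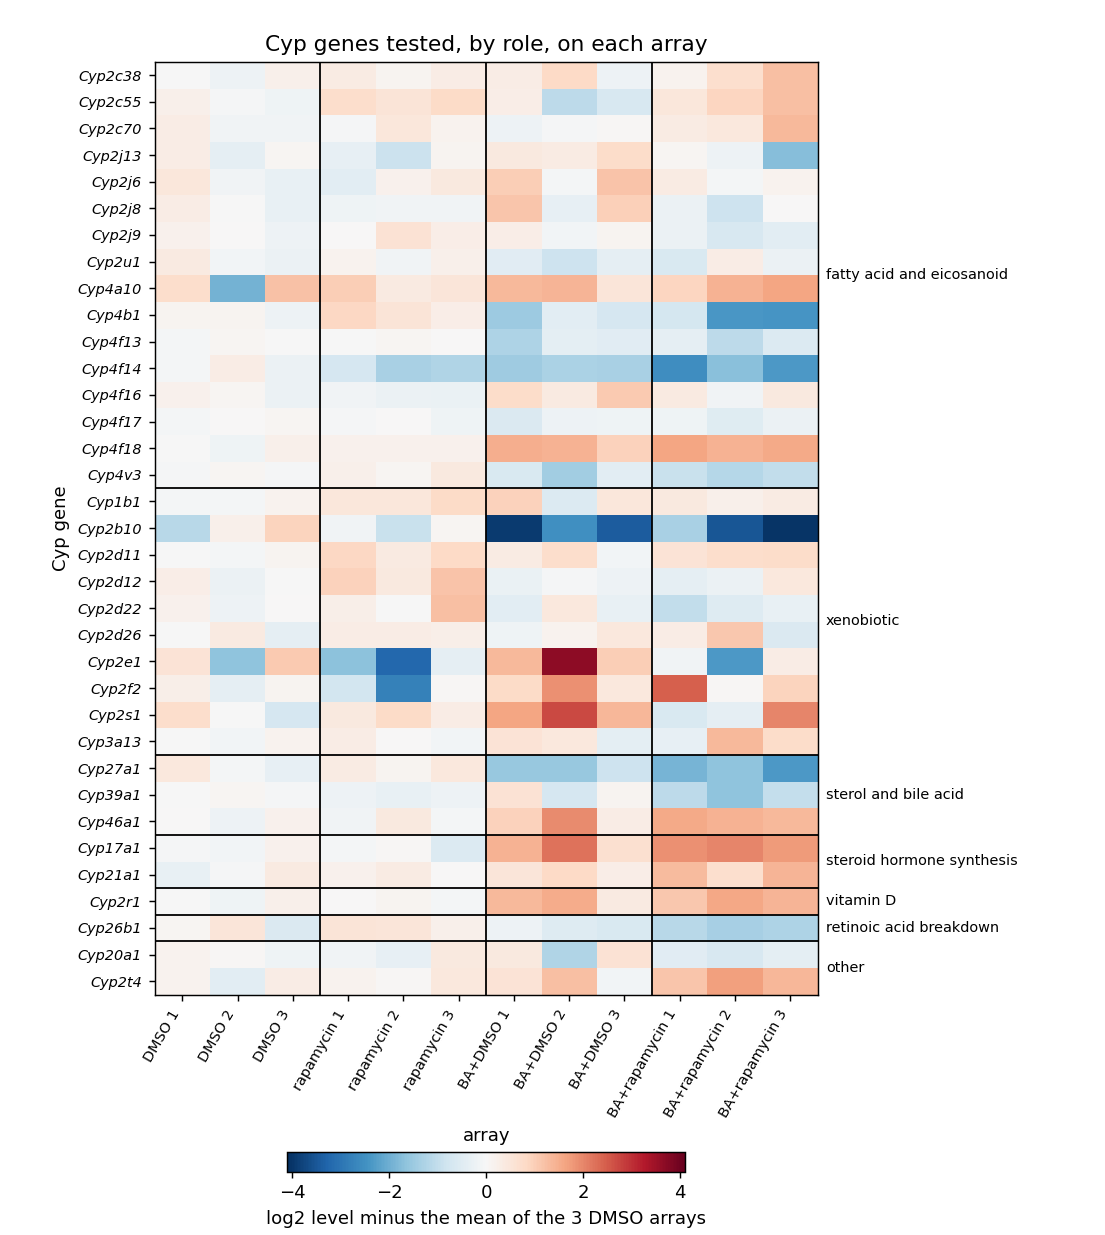
Level of each of the 35 Cyp genes tested (rows, grouped by role) on each of the 12 arrays (columns), as a log2 difference from the mean of the 3 DMSO arrays, with red higher and blue lower. The blue row of Cyp2b10 in the challenged groups and the red rows of Cyp17a1 and Cyp4f18 stand out, and the rows of Cyp2e1 and Cyp2f2 vary widely between arrays of a group.

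Slide, array brightness, the day in the array titles and 1 array bear on these counts. With slide as a fixed block none of the 9 calls on vehicle remained (4 of 35 at an unadjusted p under 0.05, and 0.0599% of all genes called), while 15 of 35 were called on rapamycin, all among the 18, beside 29.2% of all genes. With array brightness as a covariate 7 were called on vehicle, beside 19.5% of all genes, of which 5 were among the 9 (Cyp17a1, Cyp2b10, Cyp4f14, Cyp4f16 and Cyp4f18), and 2 on rapamycin, beside 6.91%, of which 1 was among the 18 (Cyp27a1). With the title day as a fixed block, which was chosen after seeing the data and leaves 10 arrays, 1 of them BA+DMSO, and 2 residual degrees of freedom, 4 Cyp genes were called on vehicle, beside 5.96% of all genes, with Cyp2b10 and Cyp27a1 among the 9, and 2 on rapamycin (Cyp27a1 and Cyp4b1), beside 12.7%. No called difference changed sign with it. On the 8 arrays of the second slide alone, the challenge on rapamycin gave 6 calls, beside 12% of all genes, which were Cyp4f18, Cyp17a1, Cyp26b1, Cyp27a1, Cyp4b1 and Cyp4v3. Without BA+DMSO replicate 2, 12 were called on vehicle, beside 28.4% of all genes, with Cyp1b1 (0.72), Cyp2j6 (1.09), Cyp2j8 (1.05) and Cyp4f13 (-0.86) added to the 9 and Cyp46a1 lost, and the fall of Cyp4v3 was -0.54.

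Among the enzymes of fatty acids and eicosanoids, 2 of 16 rose and 2 fell on vehicle, where 10.4% of all genes rose and 11% fell, and 1 rose and 5 fell on rapamycin, beside 19.8% and 22.9%. Cyp4f18, which inactivates the leukocyte attractant leukotriene B4 in mouse neutrophils, had the smallest adjusted p of the family on vehicle. Its level was -0.40, -0.56 and -0.17 on the DMSO arrays and 1.12, 1.05 and 0.56 on the BA+DMSO arrays. On rapamycin it was -0.22, -0.21 and -0.19 without the challenge and 1.24, 1.03 and 1.17 with it. Each challenged array lay above each unchallenged one. The log2 difference was 1.29 (SE 0.18, limma adjusted p 0.00137) on vehicle and 1.35 (SE 0.18, adjusted p 0.000688) on rapamycin, or 2.45-fold and 2.55-fold. A second probe, shifted by 1 base and differing from the first at 3 of 59 shared positions, gave 1.06 (SE 0.19) and 1.28 (SE 0.19), called in both. Of the leukocyte genes listed, 2 of 6 neutrophil markers tested and 8 of 9 macrophage markers were higher on vehicle, beside 10.4% of all genes. The summed neutrophil marker level was 7.69 to 8.01 in DMSO, 7.28 to 9.23 in BA+DMSO, 7.66 to 7.92 in rapamycin and 8.98 to 9.36 in BA+rapamycin, with Ltf, Mpo, Ngp and Retnlg below the filter. The summed macrophage marker level was 6.80 to 7.14, 7.58 to 8.95, 6.93 to 7.18 and 8.57 to 8.99 in the same order. On BA+DMSO replicate 3 the summed neutrophil level was the lowest of all arrays, while the median of the 6 markers was 1.57 above the DMSO mean and Cyp4f18 read 0.56. The part of these cells in the Cyp4f18 result was not tested.

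The neighbours of Cyp4f18 in the 4F subfamily, which hydroxylate leukotrienes and fatty acids at the end of the chain, did not move together. Cyp4f14 read -0.77, -0.37 and -0.92 in DMSO, -2.16, -1.97 and -2.02 in BA+DMSO, -1.38, -2.02 and -1.91 in rapamycin and -3.24, -2.39 and -3.03 in BA+rapamycin. Every DMSO array lay above all 9 others. The difference was -1.36 (SE 0.26, adjusted p 0.00509) on vehicle, and -0.47 (adjusted p 0.0913) with normexp, another way to subtract background. On rapamycin no BA+rapamycin array was well above background, so that Cyp4f14 was at least 1.90-fold lower (adjusted p 0.00705), and this difference turned to 0.22 (adjusted p 0.338) with normexp.
Cyp4f16 rose from between -0.98 and -0.58 in DMSO to between -0.38 and 0.32 in BA+DMSO (0.73, SE 0.22, adjusted p 0.0401), a call lost under 12 of 18 alternatives, and the difference on rapamycin was 0.43 (SE 0.22, adjusted p 0.131). Cyp4f13 read 1.06 to 1.23 on all 6 unchallenged arrays and -0.12 to 0.77 on the 6 challenged ones. Its difference of -0.71 (SE 0.25) missed the threshold on vehicle (adjusted p 0.0655) and the -0.68 on rapamycin passed it (adjusted p 0.0467), a call lost under 13 of 20 alternatives. Cyp4f17 was called in neither comparison (-0.32 and -0.25, SE 0.17).

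Cyp4v3, the mouse counterpart of a fatty acid hydroxylase needed in the retina, fell in both comparisons. Its level was 1.07, 1.20 and 1.07 in DMSO and 0.48, -0.32 and 0.68 in BA+DMSO. With rapamycin the values were 1.33, 1.20 and 1.51 without and 0.20, -0.06 and 0.11 with the challenge. No challenged array reached an unchallenged one. The differences were -0.84 (SE 0.24, adjusted p 0.0304) and -1.26 (SE 0.24, adjusted p 0.003). Array brightness as a covariate brought them to -0.34 and -0.39, neither called.

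Cyp4b1, which hydroxylates fatty acids and activates some plant toxins, was at -1.34, -1.34 and -1.67 in DMSO and at -2.94, -1.90 and -2.13 in BA+DMSO. On rapamycin it went from -0.62, -0.91 and -1.17 to -2.17, -3.84 and -3.86, where 1 of 3 BA+rapamycin arrays was well above background. Neither pair of groups overlapped. The difference on vehicle was -0.87 (SE 0.42, adjusted p 0.167) and the fall on rapamycin was called at -2.39 (SE 0.42, adjusted p 0.00232), while the test of the difference between these 2 differences did not pass (-1.52, SE 0.60, adjusted p 0.737). With normexp the difference on rapamycin was -0.44 (adjusted p 0.0528).

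Of the 2J and 2C members, Cyp2j9 fell on rapamycin by 0.73 on the log2 scale (SE 0.20, adjusted p 0.0154). Its levels were -1.08, -0.53 and -0.85 in rapamycin and -1.36, -1.77 and -1.54 in BA+rapamycin, with no overlap, and normexp gave -0.14 (adjusted p 0.403). The other 2J members, Cyp2j6, Cyp2j8 and Cyp2j13, gave differences of 0.70, 0.58 and 0.51 on vehicle and, for the first pair, 0.09 and -0.20 on rapamycin, where no BA+rapamycin array was well above background for Cyp2j13, and none was called with all arrays, Cyp2j6 and Cyp2j8 being called on vehicle without BA+DMSO replicate 2. The Cyp2j13 probe is also listed for Cyp2j12, so these 2 genes cannot be told apart. The 2C members Cyp2c38 (0.30 on vehicle and 0.44 on rapamycin) and Cyp2c70 (-0.07 and 0.51) were not called, and neither was Cyp2c55 (0.17 on rapamycin), for which no BA+DMSO array was well above background, so that no size is given on vehicle. Roles were assigned from gene names, so epoxygenase activity is not implied for each 2C member, such as Cyp2c70. Cyp4a10, a target of the fatty acid receptor PPARα, ranged from -5.94 to -2.78 within the DMSO group alone and was not called.

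**Figure D2:**
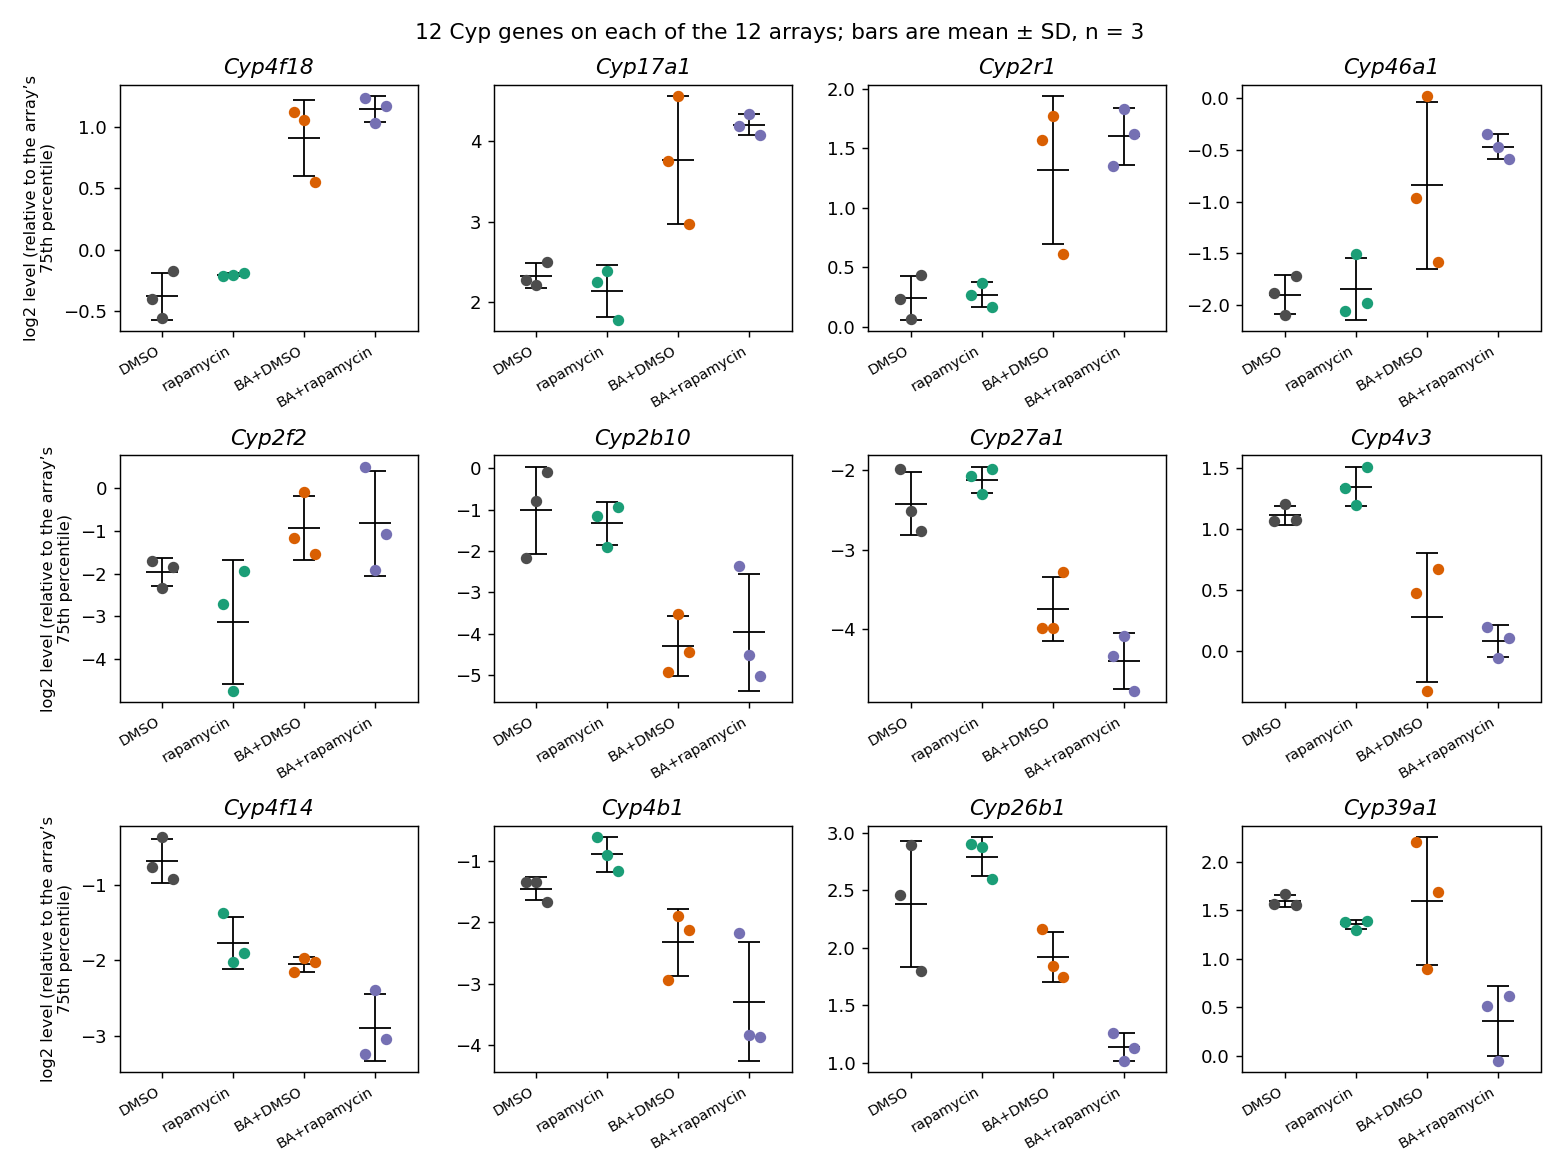
Level of 12 Cyp genes on each of the 12 arrays (points, 3 for each group), with bars for mean ± SD, on the log2 scale relative to the array's 75th percentile, each panel with its own axis. Cyp4f18 and Cyp17a1 are higher on every challenged array, and Cyp27a1 and Cyp4v3 lower, than on any unchallenged one.

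The steroid hormone enzymes measured here were both higher under the challenge on rapamycin, beside 19.8% of all genes. On vehicle 1 of the 2 was higher, beside 10.4%. Cyp17a1 encodes the 17α-hydroxylase that opens the way to cortisol and androgens in human adrenal and to androgens in the mouse gonad. Its probe, shown above, read 2.27, 2.21 and 2.50 in DMSO and 3.76, 4.56 and 2.97 in BA+DMSO. On rapamycin it read 2.25, 2.39 and 1.77 without and 4.19, 4.34 and 4.08 with the challenge. The groups did not overlap in either pair. Cyp17a1 rose by 1.44 (SE 0.33, adjusted p 0.0137) on vehicle and by 2.07 (SE 0.33, adjusted p 0.0015) on rapamycin. The rise was 0.62 (adjusted p 0.0374) and 0.63 (adjusted p 0.146) with array brightness as a covariate.

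Cyp21a1, the 21-hydroxylase of adrenal steroid synthesis, read -2.90, -2.63 and -2.23 in DMSO and -2.09, -1.77 and -2.30 in BA+DMSO, which overlap (0.53, SE 0.24, adjusted p 0.144). On rapamycin it rose from between -2.58 and -2.26 to between -1.91 and -1.21 (0.95, SE 0.24, adjusted p 0.0122). Of 14 adrenal cortex markers 9 did not pass the filter, among them Star, Cyp11a1, Cyp11b1, Hsd3b1, Mc2r and Akr1b7, which define that gland. The summed level of the 5 tested was 3.97 to 4.07 in DMSO, 3.71 to 3.97 in BA+DMSO, 3.78 to 4.05 in rapamycin and 3.39 to 3.77 in BA+rapamycin. By gene, Scarb1, the HDL receptor, rose in both comparisons (1.09 and 1.14), and Mrap (1.83), Nr5a1 (0.86) and Cyp21a1 itself rose on rapamycin, where Fdx1 fell. The part of adrenal tissue in the Cyp17a1 and Cyp21a1 results was not tested.

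The oxysterol enzymes moved apart. Cyp27a1 adds the 27-hydroxyl group to cholesterol in mitochondria. It read -1.98, -2.51 and -2.77 in DMSO and -3.98, -3.98 and -3.28 in BA+DMSO, where 1 of 3 arrays was well above background. On rapamycin it read -2.07, -2.30 and -1.99 without and -4.34, -4.08 and -4.77 with the challenge, none of the latter well above background. Neither pair of groups overlapped. The fall was -1.32 (SE 0.27, adjusted p 0.00797) on vehicle and at least 1.49-fold (adjusted p 0.000348) on rapamycin. These values lie near background, and with normexp the differences were 0.05 (adjusted p 0.831) and 0.12 (adjusted p 0.574).

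Cyp46a1, the cholesterol 24-hydroxylase best known in neurons, was higher in both comparisons. Its levels were -1.88, -2.10 and -1.72 in DMSO, -0.96, 0.02 and -1.59 in BA+DMSO, -2.06, -1.51 and -1.99 in rapamycin and -0.34, -0.47 and -0.59 in BA+rapamycin. All challenged arrays but BA+DMSO replicate 3 lay above every unchallenged one. The differences were 1.06 (SE 0.34, adjusted p 0.047) and 1.38 (SE 0.34, adjusted p 0.00946). The first lost its call under 14 of 18 alternatives, and brightness as a covariate left 0.33 and 0.10.
Cyp39a1, which 7α-hydroxylates 24-hydroxycholesterol, the product of Cyp46a1, did not differ detectably on vehicle (-0.00, SE 0.29). On rapamycin it fell from 1.38, 1.30 and 1.39 to 0.52, -0.05 and 0.62 (-0.99, SE 0.29, adjusted p 0.0209), and brightness as a covariate left -0.21. The 3 BA+DMSO arrays, at 2.20, 0.89 and 1.69, lay above all 3 BA+rapamycin arrays.

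Cyp2r1, a 25-hydroxylase of vitamin D, read 0.23, 0.06 and 0.44 in DMSO and 1.57, 1.77 and 0.61 in BA+DMSO. On rapamycin the values were 0.27, 0.37 and 0.16, and 1.35, 1.83 and 1.62 with the challenge. Neither pair overlapped. The rises were 1.08 (SE 0.28, adjusted p 0.0207) and 1.33 (SE 0.28, adjusted p 0.00463). A second probe gave 0.43 (adjusted p 0.37) and 0.41 (adjusted p 0.323), so the call rests on 1 of 2 probes, and brightness as a covariate left 0.45 and 0.24, neither called.

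Cyp26b1, which breaks down retinoic acid, was the retinoic acid hydroxylase detected. It read 2.46, 2.89 and 1.80 in DMSO, 2.17, 1.84 and 1.75 in BA+DMSO, then 2.91, 2.87 and 2.60 in rapamycin and 1.26, 1.02 and 1.13 in BA+rapamycin. The BA+rapamycin arrays lay below all others. The difference on vehicle was -0.46 (SE 0.25, adjusted p 0.215) and the fall on rapamycin -1.66 (SE 0.25, adjusted p 0.00117), which lay between -1.75 and -1.47 under the 20 alternatives run for it and was called in 18 of them, the exceptions being array brightness as a covariate (adjusted p 0.0637) and the day in the title as a block (adjusted p 0.132). The difference between the 2 comparisons was -1.19 (SE 0.36, adjusted p 0.653).

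Among the enzymes for foreign compounds, 1 of 10 fell and none rose on vehicle, beside 11% and 10.4% of all genes, and 1 rose and 3 fell on rapamycin, beside 19.8% and 22.9%. Cyp2b10, the standard target gene of the xenobiotic receptor CAR in liver, fell in both comparisons. It read -2.16, -0.79 and -0.09 in DMSO and -4.94, -3.52 and -4.44 in BA+DMSO, where no array was well above background. On rapamycin it read -1.14, -1.91 and -0.94 without and -2.36, -4.51 and -5.02 with the challenge, where 1 array was well above background. Neither pair overlapped. Cyp2b10 was at least 4.66-fold lower on vehicle (limma adjusted p 0.00953), and its log2 difference on rapamycin was -2.63 (SE 0.70, adjusted p 0.0137). Normexp gave Cyp2b10 differences of -0.85 (adjusted p 0.0833) and -0.31 (adjusted p 0.428), neither called. Nr1i3, the gene of CAR itself, gave 1.32 (SE 0.97, adjusted p 0.356) and 3.24 (SE 0.97, adjusted p 0.022).

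Cyp2f2, known from the club cells of the lung airway, read -1.71, -2.34 and -1.85 in DMSO, -1.18, -0.10 and -1.55 in BA+DMSO, then -2.71, -4.73 and -1.93 in rapamycin and 0.50, -1.92 and -1.07 in BA+rapamycin. Its rise on rapamycin (2.29, SE 0.73, adjusted p 0.0282) came from groups that nearly touch. Cyp2e1, which oxidises ethanol and is found in liver and adipose tissue, varied most, from -3.58 on rapamycin replicate 2 to 3.30 on BA+DMSO replicate 2, with a mean ± SD (n = 3) of -0.36 ± 1.45 for DMSO, 1.64 ± 1.45 for BA+DMSO, -2.12 ± 1.43 for rapamycin and -1.1 ± 1.41 for BA+rapamycin. Neither this probe nor a second one for Cyp2e1 was called in any comparison. Of 12 white adipocyte markers 10 were tested and none was called on vehicle or on rapamycin, beside 21.4% and 42.7% of all genes. Their summed level was 6.28 to 6.59 in DMSO, 6.51 to 7.94 in BA+DMSO, 6.23 to 6.87 in rapamycin and 6.02 to 8.06 in BA+rapamycin. The array with the highest summed level was BA+DMSO replicate 2 in its group, which also had the highest Cyp2e1 and Cyp2f2, and BA+rapamycin replicate 1 in its group, which had the highest Cyp2f2, while Cyp2e1 was highest on BA+rapamycin replicate 3. Lep and Lipe, on the white list, were below the filter. The summed level of the 8 brown adipocyte markers tested was 4.56 to 5.0 in DMSO and 5.34 to 5.88 in BA+DMSO. It was 4.99 to 5.11 in rapamycin and 5.41 to 6.08 in BA+rapamycin, with no overlap in either pair. On vehicle 2 of the 8 rose, Ucp1 (4.32) and Dio2 (1.72), beside 10.4% of all genes. On rapamycin Dio2 (1.73) rose and Cidea (-2.61) and Ppargc1a (-1.02) fell, beside 19.8% and 22.9%. The part of white or brown adipocytes in the Cyp2e1 and Cyp2f2 values was not tested. Of the liver markers 8 of 14 on the array, among them Alb, Apoa1 and Ttr, were below the filter, while Ambp rose by 2.89 on vehicle and 3.61 on rapamycin, Ahsg rose by 0.76 on vehicle and fell by 1.09 on rapamycin, and Trf rose by 0.71 on vehicle. The summed level of the 6 tested was 4.05 to 4.34 in DMSO, 4.65 to 5.0 in BA+DMSO, 4.77 to 4.92 in rapamycin and 4.83 to 5.0 in BA+rapamycin, and the part of liver RNA was not tested.

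The 2D enzymes, which oxidise many amine drugs, were near background except for Cyp2d11. On rapamycin Cyp2d12 fell by 0.89 on the log2 scale (adjusted p 0.0208), and Cyp2d22, for which no BA+rapamycin array was well above background, was at least 1.50-fold lower (adjusted p 0.0267). Cyp2d12 read -1.54, -2.09 and -1.31 in rapamycin and -2.85, -2.71 and -2.04 in BA+rapamycin, which overlap. With normexp these differences turned to 0.18 and 0.32, neither called. Cyp1b1, a vascular P450 under the aryl hydrocarbon receptor, read 2.67, 2.66 and 2.89 in DMSO and 3.70, 2.19 and 3.22 in BA+DMSO and was not called (0.30, SE 0.31), though it was without BA+DMSO replicate 2. Cyp2s1, an enzyme of epithelia, gave 1.90 on vehicle (SE 0.63, adjusted p 0.0553), with -0.76, -1.52 and -2.19 in DMSO against 0.12, 1.22 and -0.11 in BA+DMSO, which do not overlap. On rapamycin Cyp2s1 gave -0.17 (SE 0.63). Cyp2d11, Cyp2d26 and Cyp3a13 were between 0.13 and 0.32 on vehicle, with no call. On rapamycin Cyp2d11 gave -0.01 and Cyp3a13 0.52, and Cyp2d26 had no BA+rapamycin array well above background, with no call for any of the 3.

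Of the 2 members with little known function, Cyp2t4 rose on rapamycin from between -1.32 and -0.96 to between -0.24 and 0.30 (1.19, SE 0.32, adjusted p 0.0143), and brightness as a covariate left 0.03. Cyp20a1 gave -0.08 (SE 0.40) and -0.48 (SE 0.40), while its second probe gave 0.30 and, called, 0.62 (SE 0.21, adjusted p 0.0337). Its probes thus differed in direction, and none is given for Cyp20a1.

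**Figure D3:**
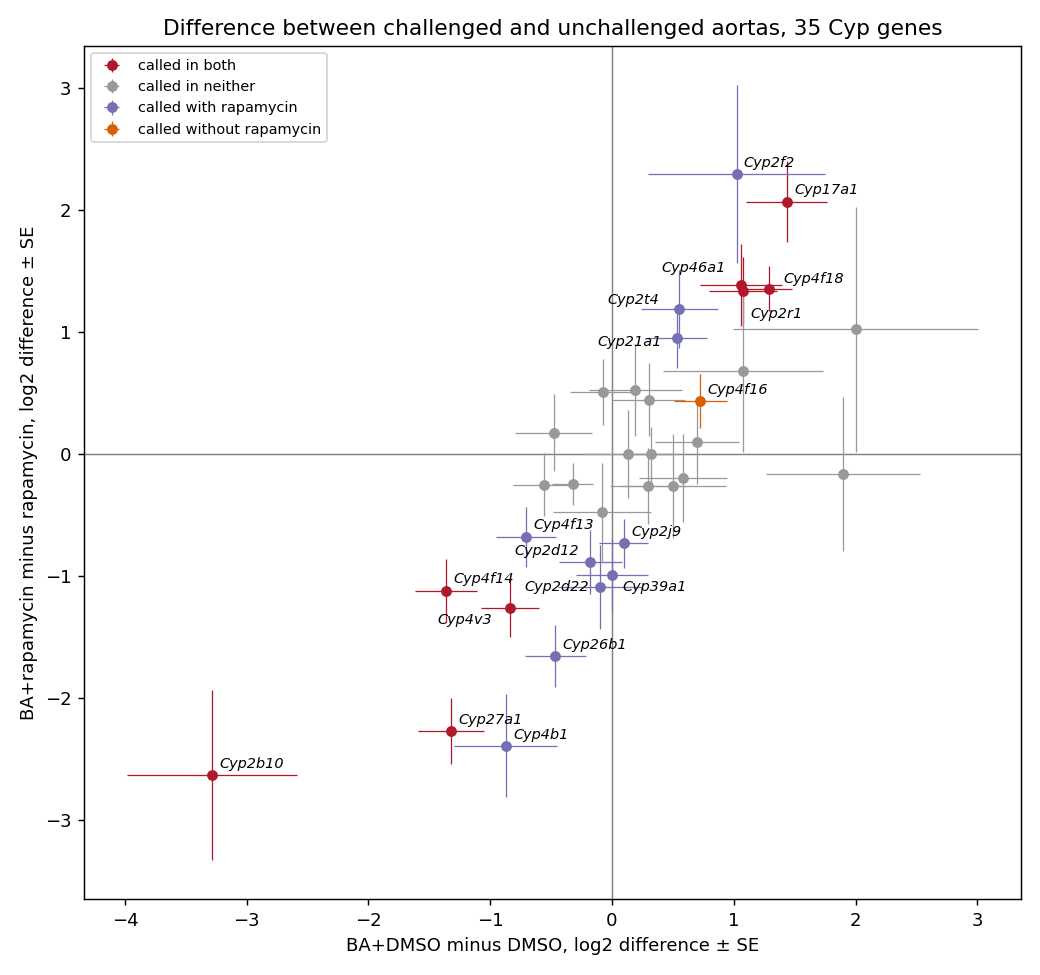
Log2 difference between challenged and unchallenged aortas for the 35 Cyp genes on vehicle (x axis) and on rapamycin (y axis), with bars for SE and colours for an adjusted p under 0.05 in both, either or neither comparison. The 8 genes called in both lie at lower left and upper right, and Cyp26b1, Cyp4b1, Cyp39a1 and Cyp2d22 lie further from 0 on the y axis.

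Rapamycin itself was compared under the challenge (BA+rapamycin minus BA+DMSO) and alone (rapamycin minus DMSO). No Cyp gene was called in either, beside 0.305% and 0.00499% of all genes. At an unadjusted p under 0.05 there were 15 of 35 (42.9%) under the challenge, beside 20.5% of all genes, and 3 (8.57%) alone, beside 4.43%. The median difference was 0.05 and 0.17, beside -0.03 and -0.01 over all genes. The groups did not overlap for 9 of 35 (25.7%) under the challenge, beside 14.9% of all genes, and for 7 (20%) alone, beside 22.4%. The interaction, which is the first difference minus the second, called 0 Cyp genes, as it called 0% of all genes, with 6 Cyp genes (17.1%) and 6.01% of all genes at an unadjusted p under 0.05.

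The smallest adjusted p under the challenge belonged to Cyp2c55, an arachidonic acid oxygenase of the gut. It read -3.04, -4.39 and -3.97 in BA+DMSO, where no array was well above background, and -2.86, -2.44 and -2.08 in BA+rapamycin, where 1 array was. The groups did not overlap, the adjusted p was 0.0907, and with so few values above background no size is given. Cyp39a1 came next, at -1.23 (SE 0.29, adjusted p 0.0918), with no overlap between the groups. Cyp4f14 (at least 1.56-fold, adjusted p 0.143), Cyp26b1 (-0.78, adjusted p 0.158), Cyp2e1 (-2.74, SE 1.01, adjusted p 0.195) and Cyp2s1 (-1.57, adjusted p 0.217) were also lower in BA+rapamycin by value and not called. In the other direction Cyp2c70 (0.77, adjusted p 0.181, no overlap) and Cyp2t4 (0.84, adjusted p 0.202) were higher by value and not called. For rapamycin alone the smallest adjusted p was that of Cyp4f14 (-1.08, SE 0.26, adjusted p 0.554), followed by Cyp2d12 (0.83, adjusted p 0.871) and Cyp2d11 (0.69, adjusted p 0.909), each without overlap. The comparison for rapamycin alone, and with it the interaction, is partly confounded with slide.

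One array decided the count under the challenge. Without BA+DMSO replicate 2, 15 of 35 Cyp genes (42.9%) were called, 6 higher and 9 lower, beside 41% of all genes. The higher ones were Cyp2t4 (1.17, SE 0.28), Cyp17a1 (0.84), Cyp46a1 (0.81), Cyp21a1 (0.73), Cyp2d11 (0.57) and Cyp2c55. The lower ones were Cyp39a1 (-1.58, SE 0.22, adjusted p 0.00247), Cyp2j8 (-1.41), Cyp20a1 (-1.0), Cyp2j6 (-0.95), Cyp26b1 (-0.82), Cyp4f16 (-0.69), Cyp2j9 (-0.64), Cyp4v3 (-0.49) and Cyp4f14. Cyp20a1 is counted by its first probe, and its second gave 0.44 with all arrays, not called, so no direction is given for that gene. No size is given for Cyp2c55 and Cyp4f14, since no BA+DMSO array of the first and no BA+rapamycin array of the second was well above background. The interaction then called 4, namely Cyp39a1 (-1.35), Cyp2j8 (-1.25), Cyp1b1 (-0.98) and Cyp4v3 (-0.73), beside 11.2% of all genes. This array was among the dimmest, at a 75th percentile of 78.1, and had the highest Cyp2e1, Cyp2s1 and Cyp17a1 levels of its group.

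**Figure D4:**
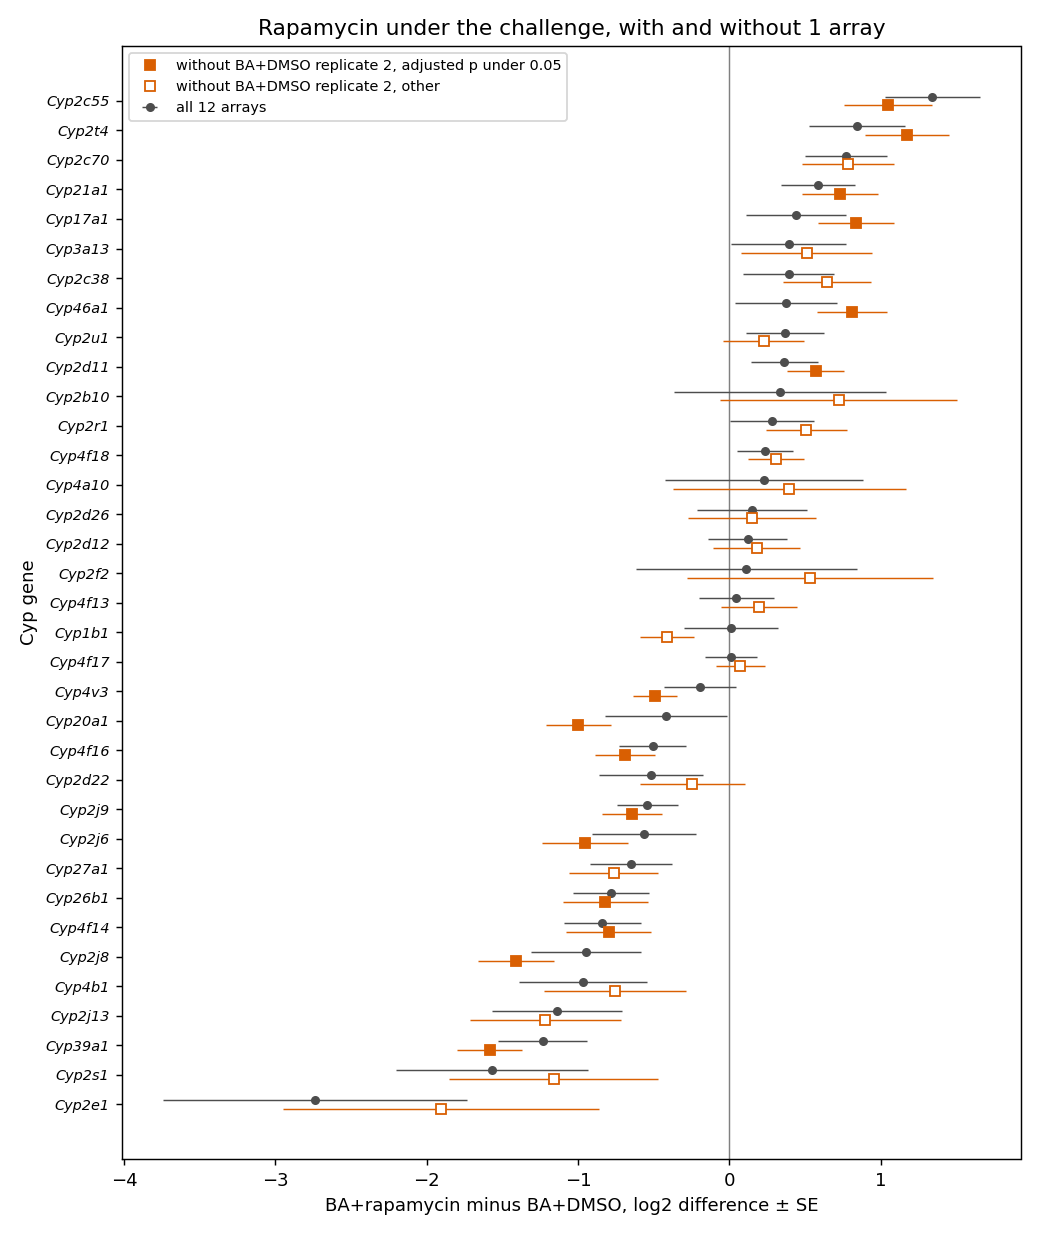
Log2 difference between BA+rapamycin and BA+DMSO for each of the 35 Cyp genes, with bars for SE, from all 12 arrays (grey circles) and without BA+DMSO replicate 2 (orange squares, filled where the adjusted p was under 0.05). No grey circle passed the threshold, and 15 squares are filled.

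Genes that work with the P450 enzymes were read from lists. Of 21 genes tested for electron donors, haem synthesis, haem binding and haem breakdown, 2 rose and 1 fell on vehicle. On rapamycin 2 rose and 5 fell, and the medians were -0.02 on vehicle and -0.36 on rapamycin. Of all genes, 10.4% rose and 11% fell on vehicle, and 19.8% rose and 22.9% fell on rapamycin. Hmox1, the inducible haem oxygenase, rose by 1.58 (SE 0.35, adjusted p 0.0114) on vehicle, and Alas2, the erythroid first enzyme of haem synthesis, by 2.45 (adjusted p 0.00713). Pgrmc2, a haem-binding partner, fell by 0.77 on vehicle and 1.15 on rapamycin, and on rapamycin Pgrmc1 (-1.05), the mitochondrial electron carrier Fdx1 (-0.80), the donor Cyb5 (-1.01) and Alad (-0.81), an enzyme of haem synthesis, fell as well.

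Of 12 xenobiotic receptor and Ahr pathway genes tested, 1 rose and 1 fell on vehicle and 2 rose and 4 fell on rapamycin. The shares of all genes that rose and fell were 10.4% and 11% on vehicle and 19.8% and 22.9% on rapamycin. Nqo1, a quinone reductase induced by oxidative stress, fell by 1.36 (SE 0.34, adjusted p 0.0198) and 2.42 (adjusted p 0.000831), and Rxrg, a partner of nuclear receptors, rose by 0.57 (adjusted p 0.019) on vehicle. Ahr, the aryl hydrocarbon receptor, gave 1.48 (adjusted p 0.0695) on vehicle and rose by 1.86 (adjusted p 0.018) on rapamycin, while Cyp1a1 stayed undetected on all 12 arrays and Cyp1b1 gave 0.30 and -0.26. Of 10 circadian genes, which include the factors Dbp, Tef and Hlf that drive P450 genes in liver, 2 fell on vehicle, where 11% of all genes fell. On rapamycin 1 rose and 7 fell, beside 19.8% and 22.9% of all genes. The medians were 0.20 on vehicle and -1.23 on rapamycin. On vehicle the 2 were Nfil3 (-2.28, adjusted p 0.0133), a repressor at the same sites, and the clock gene Per2 (-0.94, adjusted p 0.0325). Nr1d1 (-2.02), Dbp (-1.91) and Nr1d2 (-1.36) fell on rapamycin, and their differences on vehicle were 0.79, 1.66 and 0.49, not called. With rapamycin alone, a comparison partly confounded with slide, the same genes gave 2.32, 2.43 and 1.93, not called, while Hlf, which fell by 1.48 on rapamycin, gave -0.03. The summed level of the list was 6.02 to 6.51 in DMSO and 6.64 to 7.26 in rapamycin. In BA+DMSO it was 5.63 to 6.54 and in BA+rapamycin 5.38 to 6.11. The part of the starting level in these falls was not tested. The hour of sampling is not given in the sources used here.

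Of 13 retinoid pathway genes tested, 3 rose and 1 fell on vehicle and 4 rose and 3 fell on rapamycin. Among all genes 10.4% rose and 11% fell on vehicle, and 19.8% rose and 22.9% fell on rapamycin. Aldh1a2, which makes retinoic acid, rose by 2.24 (SE 0.285, adjusted p 0.000807) and 1.61, the carrier Crabp2 rose by 1.61 and 2.52, and the receptor gene Rarb fell by 1.36 and 1.69. These stand beside Cyp26b1, which removes retinoic acid and gave -0.46 and -1.66. Of 9 genes of oxysterol synthesis and sensing tested, 1 rose and 2 fell in each comparison, beside the same shares of all genes. Ch25h, the cholesterol 25-hydroxylase, which is no P450, rose by 3.70 (SE 0.75, adjusted p 0.00743) and 3.92, while Mylip (-1.21 and -2.07) and Abca1 (-0.92 and -1.01), which are targets of the oxysterol receptor LXR, fell. Abcg1, of the same list, gave 0.15 and 0.24, not called.

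Of 15 other eicosanoid enzymes tested, 5 rose and none fell on vehicle, beside 10.4% and 11% of all genes. On rapamycin 5 rose and 1 fell, beside 19.8% and 22.9%. The leukotriene synthesis genes Alox5ap (2.24, SE 0.35), Alox5 (1.73) and Ltc4s (1.66), the thromboxane synthase Tbxas1 (1.69), which is itself a P450 by structure but named otherwise, and the epoxide hydrolase Ephx2 (1.20) rose on vehicle, and on rapamycin at 1.62, 1.12, 1.36, 1.06 and 1.02. Ephx1, the microsomal hydrolase that acts on P450 products, fell by 1.60 on rapamycin. In the vitamin D list of 4 tested, the receptor gene Vdr rose by 1.57 (adjusted p 0.0233) and 2.32. For the 7 lists together, rapamycin under the challenge and alone called no gene, beside 0.305% and 0.00499% of all genes.

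The remaining cell markers gave, on vehicle, 3 of 6 liver markers higher, 0 of 2 kidney markers, 2 of 8 brown adipocyte markers higher, 2 of 9 smooth muscle markers lower, 3 of 9 endothelial markers higher, 2 of 8 fibroblast markers higher and 1 of 5 adrenal markers higher. Among all genes, 10.4% were higher and 11% lower on vehicle. On rapamycin 7 of 9 macrophage and 2 of 6 neutrophil markers were higher, where 19.8% of all genes were higher and 22.9% lower. Of the others there, 1 liver marker was higher and 1 lower, none of kidney was called, 1 brown adipocyte marker was higher and 2 lower, 1 smooth muscle marker was higher and 4 lower, 1 endothelial marker was higher and 2 lower, and 3 fibroblast markers were higher and 1 lower. For adrenal cortex, 4 of 5 markers were higher there and 1 lower.

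Promoters were read from RefSeq (build GRCm38.p6) for the tested members. A promoter matched by symbol for 27 of 35, with 31 windows of 250 bases before and 50 after the start, because some have several starts. The letters searched, on both strands, were GCGTG, the core of the Ahr site, which 35.5% of the Cyp windows and 32.4% of all 32851 windows hold; AGGTCA, a nuclear receptor half-site, in 9.68% and 16.3%; and the D-box TTATGTAA or TTACGTAA bound by Dbp, Tef and Hlf, in none of the Cyp windows and in 0.938% and 0.119% of all. A match is a description of the letters and not a site. The 250 bases before the start are shown for Cyp2b10 (chr7:25897408-25897657, plus strand), which fell in both comparisons, and Cyp46a1 (chr12:108334066-108334315, plus strand), which rose in both comparisons and holds 4 GCGTG matches. Capitals mark GCGTG or its reverse complement.
Cyp2b10: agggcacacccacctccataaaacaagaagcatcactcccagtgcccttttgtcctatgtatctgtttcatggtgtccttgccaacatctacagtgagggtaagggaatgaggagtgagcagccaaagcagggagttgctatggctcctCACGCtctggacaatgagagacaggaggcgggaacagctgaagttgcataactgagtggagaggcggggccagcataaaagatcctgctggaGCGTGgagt
Cyp46a1: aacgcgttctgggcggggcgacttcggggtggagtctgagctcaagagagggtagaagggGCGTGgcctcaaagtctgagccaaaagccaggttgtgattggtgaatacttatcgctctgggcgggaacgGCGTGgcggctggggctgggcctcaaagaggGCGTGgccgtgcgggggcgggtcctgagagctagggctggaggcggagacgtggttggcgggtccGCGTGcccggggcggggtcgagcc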

How the data were processed

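Members and lists were chosen with earlier results of these data known. RNA was labelled with Cy3 and hybridised to 1-colour Agilent mouse arrays, with 12 arrays. Per the file headers, the deposited processed signal is a linear intensity, background-subtracted and detrended by Feature Extraction 10.7.1.1 with probes placed on mm9, and the submitters' processing notes name version 9.5.1.1. Flags of 0 or 1 per spot, set by the authors' scanner software and deposited, mark background, saturation and outliers. The deposited table of values is a linear intensity and was recognised as quantile normalized from its values. No value was saturated.

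Here the signal was put on the log2 scale, outlier spots were removed, spots of a probe averaged and each array's 75th percentile subtracted. Testing required that, for each of the 3 arrays in some group, a share of 0.5 or more of a probe's spots exceeded background by the flag. All 12 arrays went into 1 limma model (3.58.1, in R 4.3.3; prior 3.02 degrees of freedom), two-sided, with Benjamini-Hochberg adjustment over 27801 probes, called at an adjusted p under 0.05. Each gene stands by its tested probe with the highest mean. Where no array of a group was well above background, the fold is a lower bound, set against the lowest signal detected on each array. The script was tested on simulated data. The number of arrays limits the precision, and each array was a separate mouse.

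The genes named were all called members, the 3 with the highest mean in each role, 20 members fixed whatever they showed, and from each pathway list the called genes with the 3 largest differences on vehicle. The ranking by mean chose names only, and all 35 tested members are named. Others named were chosen after their values were seen. The 7 pathway lists were P450 redox partners and haem synthesis, xenobiotic receptors, circadian factors, retinoids, oxysterols, eicosanoids and vitamin D. The 10 marker lists were adrenal cortex, liver, kidney, white and brown adipocyte, smooth muscle, endothelial, macrophage, neutrophil and fibroblast. A summed level adds the linear levels of the genes tested. Alternatives covered normalization, background, filter, slide, title day and number, array weights, brightness, the study's rule of p under 0.01 and a fold over 4 or under 0.25, probe choice and each array left out.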

Additional observations from a re-analysis of the deposited data

How the results depend on the processing

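Of the 27 called Cyp differences, 516 alternative fits gave 357 that kept the call, 154 that lost it and 5 that reversed. Arrays were left out only from the groups a comparison uses. All 5 reversals came with normexp background correction, where the log2 difference was 0.053 for Cyp27a1 on vehicle and, on rapamycin, 0.12 for Cyp27a1, 0.32 for Cyp2d22, 0.18 for Cyp2d12 and 0.22 for Cyp4f14; these probes were near background, and the cause was not tested. The count of Cyp genes called for the challenge on vehicle, 9 of 35, beside 21.4% of all genes, became 3 with only the arrays of the groups compared (4.78% of all genes), 0 with slide as a fixed block (0.0599%), 15 with slide as a random block (37.8%; correlation -0.133), 0 with array weights (0.494%), whose estimation did not converge, 1 by the study's rule (2.83%), and 4 to 12 leaving out 1 array, with 5 without DMSO replicate 1 (12.6%) and 4 without DMSO replicate 2 (7.87%). The challenge on rapamycin, 18 of 35, beside 42.7%, became 57 of 95 without a filter (51.3%; 47 higher, where the median of all genes moved to 0.69), 11 of 20 with only probes above background on all arrays (48.4%), 6 on slide 2 alone (12%), 2 with array brightness as a covariate (6.91%), 5 by the study's rule (5.43%), and 11 to 16 leaving out 1 array, lowest without BA+rapamycin replicate 2 (29%). Normexp made 16 of its 21 calls higher (62.3%), against 7 of 18, and on vehicle 9 of 12 (25.2%), against 5 of 9. Rapamycin under the challenge, 0 calls, became 1 with the percentile over probes above background on all arrays (1.76%), and 0 to 15 leaving out 1 array, with 1 without BA+DMSO replicate 1 (0.834%) and 15 without replicate 2 (41%). Rapamycin alone, 0 calls, became 5 with array weights (5.75%). The interaction gave 0 to 4 leaving out 1 array, with 4 without BA+DMSO replicate 2 (11.2%). With the number in the title as a replicate block, rapamycin alone stayed at 0 and the challenge on rapamycin gave 16 (51.9%), and deviations of the 10 pairs of arrays in different groups that share a number correlated at -0.355 to 0.17, over 0.1 for 2 pairs, so the numbers were not taken to pair the arrays. The 6 pairs that share a title day gave the same range, over 0.1 for 1 pair, and the groups of each challenge comparison share no day, though other groups link them. With the title day as a fixed block over the 10 dated arrays, chosen after seeing the data, 4 of the 27 calls were kept and 23 lost, with 4 calls on vehicle (5.96% of all genes), 2 on rapamycin (12.7%) and 0 in the other comparisons, on 2 residual degrees of freedom. Signal near background limits the 15 Cyp genes that were not detected on all 12 arrays.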
